A study of Mus musculus with 35 samples.

Results

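The IGF binding protein family was described by its 6 genes that carry these symbols in the count table, Igfbp2, Igfbp3, Igfbp4, Igfbp5, Igfbp6 and Igfbp7, out of 19085 genes. Their reads were read out in single mouse embryonic fibroblasts (MEFs), connective tissue cells grown in culture from C57Bl/6J embryos under reduced oxygen. All cells had received 1 Gy of ionising radiation and were analysed 48 h later, after re-seeding onto membrane dishes at 32 h. Each was stained with the DNA dye PicoGreen, cut out by laser and sequenced by Smart-seq2, which covers whole transcripts and does not tag single molecules. Of the 35 cells, 21 contained micronuclei, which are small chromatin bodies with their own membrane outside the main nucleus, and 14 contained none. Both groups carry the same genotype and dose, and cells without irradiation are not analysed here.

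Insulin-like growth factors (IGF1 and IGF2) are secreted peptides that act through the receptor tyrosine kinase encoded by Igf1r, while the receptor encoded by Igf2r takes up IGF2 for breakdown. IGF binding proteins are secreted carriers that hold most IGF outside cells, and they can withhold it from the receptor, protect it, or release it after proteases cut them. Fibroblasts are a known source of several of these proteins, and some members also bind integrins, heparan sulfate or matrix proteins independently of IGF. Igfbp2 to Igfbp6 encode high-affinity binders, Igfbp6 with a preference for IGF2, and Igfbp7 encodes a low-affinity relative also known as IGFBP-rP1.

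The amino-terminal domain of the family is marked by a run of cysteines, in which any residue is followed by cysteine, glycine, cysteine, cysteine, any pair of residues, and cysteine. The coding bases of this run are shown because they tie the members together and set Igfbp6 apart. It was found in 5 of the 6 reading frames (longest coding transcript of each gene, GENCODE M21 on GRCm38, matched by symbol for 6 of 6). The sequences are written 5′ to 3′ on the coding strand, with the cysteine codons in capitals.
Igfbp2: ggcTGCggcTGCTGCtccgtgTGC
Igfbp3: ggcTGCggcTGCTGCctgactTGC
Igfbp4: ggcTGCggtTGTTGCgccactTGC
Igfbp5: ggcTGTggcTGCTGCatgactTGC
Igfbp7: gcgTGCgggTGCTGCccggtgTGT
The Igfbp2 run lies at chr1:72824778-72824801 on the plus strand and covers residues 67 to 74. The Igfbp3 run lies at chr11:7213566-7213589 on the minus strand (residues 68 to 75). The Igfbp4 run lies at chr11:99041650-99041673 on the plus strand (residues 52 to 59). The Igfbp5 run lies at chr1:72873966-72873989 on the minus strand (residues 51 to 58), and that of Igfbp7 at chr5:77407826-77407849 on the minus strand (residues 56 to 63). The first residue of the run is glycine in 4 members and alanine in Igfbp7. No such run was found in the Igfbp6 reading frame, which encodes 16 cysteines in 238 residues, the fewest of the 6, against 18 to 20 cysteines in the other members. An arginine-glycine-aspartate triplet, a sequence known to bind integrins, occurred once in the Igfbp2 frame and in no other member's.

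Depth on genes ran between 57514 and 1794113 reads in micronucleated cells (median 281800), against 56766 to 2023111 reads in those without micronuclei (median 736715). Genes detected numbered 2391 to 8964 per micronucleated cell and 3861 to 8229 per cell without micronuclei. The fibroblast genes Col1a1 and Vim had at least 5 reads in 35 of 35 cells, and Thy1 and Fn1 in 34 of 35. Micronucleated cells 1, 4, 10 and 18 had at least 5 reads of at least 2 of the 10 macrophage markers, which no cell without micronuclei had. Their summed level reached 15960 CPM (reads scaled to a common total per cell) in micronucleated cell 10, against at most 64.1 CPM among cells without micronuclei. The labels tie no cell to a culture or an embryo. Each group was therefore treated as 1 sample, the values describe these cells, and there is no replicate check. Intervals are at 95%, by the exact Poisson method for sums of reads and the Clopper-Pearson method for shares of cells. The Poisson intervals hold counting error alone, and can be too narrow for that, because untagged reads are not independent molecules. The Clopper-Pearson intervals take each cell as an independent draw and hold no variation between cultures.

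Igfbp7 and Igfbp6 supplied most of the family's transcripts in these fibroblasts, and Igfbp2, Igfbp3 and Igfbp5 were found in few cells. Per kilobase of exon, over all 35 cells, the summed level was 214.6 CPM for Igfbp7, 135.4 for Igfbp6, 21.1 for Igfbp4, 10.9 for Igfbp2, 0.895 for Igfbp5 and 0.310 for Igfbp3. Igfbp7 was above Igfbp6 per kilobase in 23 of 35 cells and below it in 10, with means of 259 ± 206 for Igfbp7 and 179 ± 228 CPM per kilobase for Igfbp6 (SD over 35 cells). These neighbours differed by less than the spread between cells. Igfbp6 was above Igfbp4 in 25 cells and below it in 5. Igfbp4 was above Igfbp2 in 16 cells and below it in 3, and the remaining neighbours at the foot of the order exchanged places about as often as not, Igfbp2 against Igfbp5 in 5 and 4 cells and Igfbp5 against Igfbp3 in 5 and 5.

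**Figure D1:**
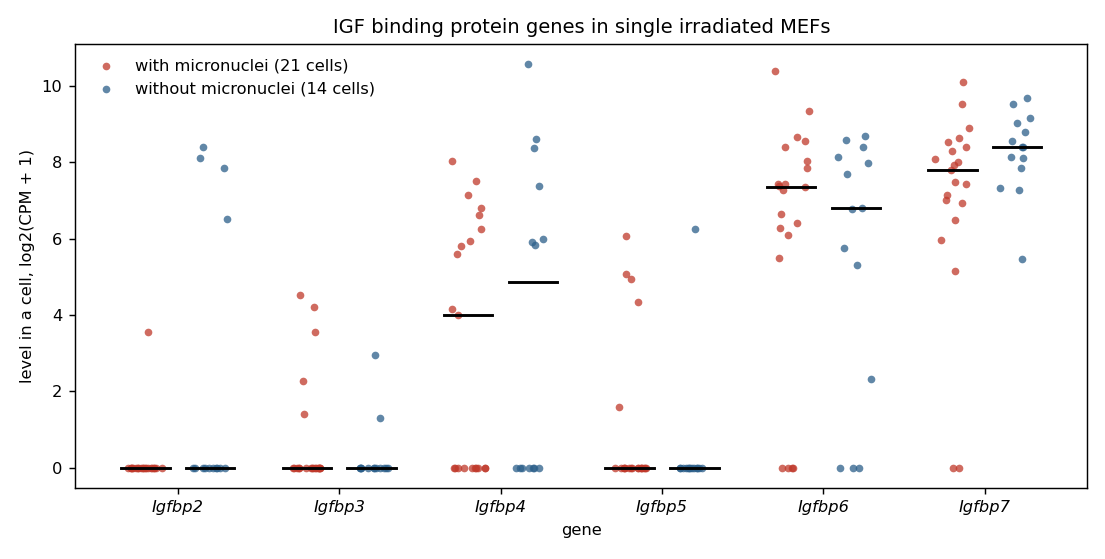
Level of each IGF binding protein gene in every cell, as log2(CPM + 1), with 21 micronucleated cells (left of each pair) and 14 cells without micronuclei (right). Points are cells and black lines the group median; Igfbp7 is at 0 in 2 micronucleated cells and in no other cell, and the medians of Igfbp2, Igfbp3 and Igfbp5 are at 0 in both groups.

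Summed over the family, the level was slightly lower with micronuclei and the groups overlapped. Micronucleated cells had 0 to 1383 CPM (median 510.7), against 154.4 to 1948 CPM in cells without micronuclei (median 797.5). The means were 559 ± 378 CPM with micronuclei and 791 ± 480 CPM without (SD over 21 and 14 cells), a difference within the spread between cells. On summed reads the family stood at 462.5 CPM with micronuclei (95% interval 450.0 to 475.4) and 593.8 CPM without (579.8 to 608.0), a log2 ratio of −0.36 with 1 CPM added to both. Here and below, a log2 ratio is micronucleated cells over cells without micronuclei, on summed CPM plus 1. The ratio stayed between −0.57 and −0.19 when each of the 35 cells was left out in turn.

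The proportions within the family also differed. Per kilobase, Igfbp6 made up 48.4% and Igfbp7 47.7% of the family in micronucleated cells, and Igfbp4 3.33%. In cells without micronuclei Igfbp7 made up 63.0%, Igfbp6 24.4%, Igfbp4 7.33% and Igfbp2 5.24%. The order of Igfbp6 and Igfbp7 in micronucleated cells was not stable: without cell 21 Igfbp6 made up 40.7% and Igfbp7 54.8%, and without cell 11 Igfbp6 made up 54.7% and Igfbp7 40.8%. In cells without micronuclei, Igfbp7 held 58.3 to 65.4% and Igfbp6 20.6 to 28.4% over all leave-outs of 1 cell. The share of Igfbp4 was 2.18% without micronucleated cell 13 and 3.69% once cell 1 without micronuclei was left out, and that of Igfbp2 in cells without micronuclei was 1.39% without cell 4. Cell by cell, Igfbp7 was the leading member per kilobase in 12 of 21 micronucleated cells and Igfbp6 in 7, against 10 and 3 of 14 cells without micronuclei, in which Igfbp4 led 1 further cell. Micronucleated cells 6 and 19 had 0 reads of all 6 genes. Cell 19 held 57514 reads, so that a count of 0 allows up to 52.2 CPM of each gene (3 reads), and cell 6 held 220313 reads, which allows up to 13.6 CPM, with 2391 genes detected, the fewest of all cells. Cell 6 had at least 5 reads of only 3 of the 11 fibroblast markers, and its macrophage markers summed to 1452 CPM. Only 1 macrophage marker reached 5 reads there, so cell 6 is not among the 4 cells listed with such markers. The part of its identity in these zeros was not tested.

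**Figure D2:**
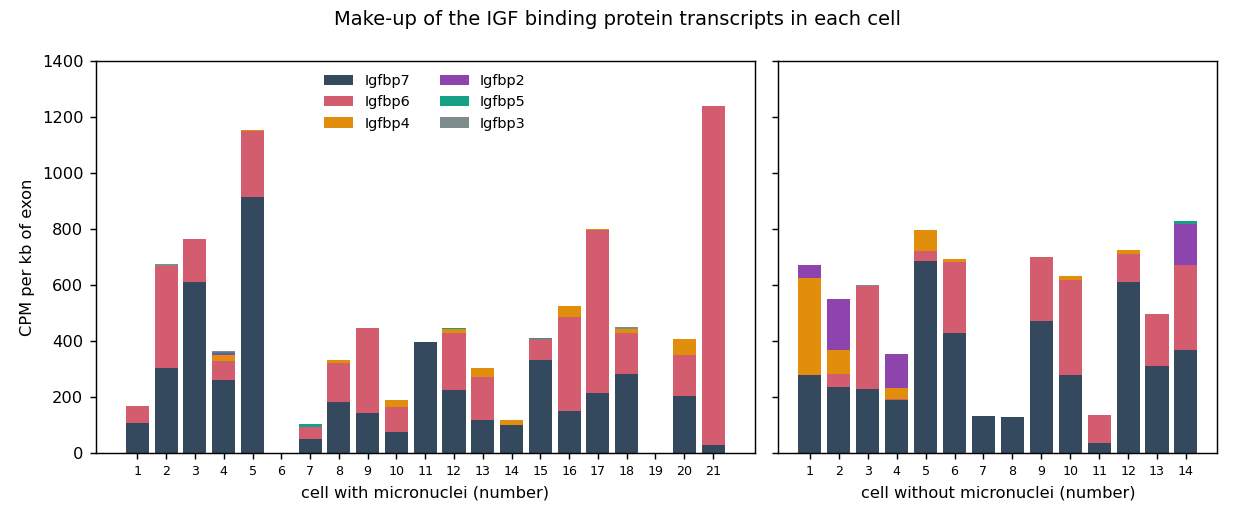
Level of the 6 genes stacked in each cell, in CPM per kilobase of exon, for 21 micronucleated cells (left) and 14 cells without micronuclei (right), numbered within their group. Igfbp7 and Igfbp6 make up most of nearly every bar, micronucleated cells 6 and 19 have none, and Igfbp2 appears in cells 1, 2, 4 and 14 without micronuclei, and as a single read in micronucleated cell 4.

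With a minimum of 5 reads, most cells expressed 2 or 3 members. In micronucleated cells, 2 cells had none of the 6 genes, 1 cell had 1, 7 had 2, 10 had 3 and 1 had 4. In cells without micronuclei, 2 had 1 member, 4 had 2, 6 had 3 and 2 had 4. No cell had 5 or 6. The members were nested around Igfbp7: each of the 27 cells with Igfbp6, the 16 with Igfbp4, the 4 with Igfbp2 and the 4 with Igfbp5 also had Igfbp7, which 33 of 35 cells had. Igfbp4 and Igfbp6 were found together in 13 cells. Since Igfbp7 was in nearly every cell, this nesting says little beyond its breadth.

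Igfbp7, the low-affinity relative that is secreted into the matrix, was the most widely detected member. It spans chr5:77349240-77408041 on the minus strand (GRCm38). It had 0 to 1106 CPM in micronucleated cells (median 220.0), against 43.4 to 828.8 CPM in cells without micronuclei (median 335.6). The groups overlapped over nearly their whole range, and the highest micronucleated cell, cell 5, was above every cell without micronuclei. At least 5 reads were present in 19 of 21 micronucleated cells (90.5%, 69.6 to 98.8%) and in 14 of 14 cells without micronuclei. Summed levels were 206.1 CPM with micronuclei (197.7 to 214.7) and 310.4 CPM without (300.3 to 320.7), a log2 ratio of −0.59 that lay between −0.83 and −0.35 over all leave-outs of 1 cell. Without the 6 cells in which under 4000 genes were detected or over 9% of reads were mitochondrial, it was −0.26. Over whole gene spans, introns included, Igfbp7 overlaps Polr2b by 85 bases and the antisense gene Gm34648 by 7085 bases. Both lie on the opposite strand, and overlap of exons was not computed. Whether counting used strand is not given in the sources used here, so reads from any shared exon sequence cannot be told apart from those of Igfbp7.

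Igfbp6, whose product prefers IGF2, went the other way. It spans chr15:102144362-102149511 on the plus strand. Levels ran between 0 and 1347 CPM in micronucleated cells (median 162.8) and between 0 and 410.0 CPM in cells without micronuclei (median 109.9). Most values of the groups overlapped, and the top value belonged to micronucleated cell 21, in which 3097 genes were detected. At least 5 reads were found in 17 of 21 micronucleated cells (81.0%, 58.1 to 94.6%) and 10 of 14 cells without micronuclei (71.4%, 41.9 to 91.6%). Summed levels were 192.4 CPM with micronuclei (184.4 to 200.8) and 110.6 CPM without (104.6 to 116.8), a log2 ratio of 0.79. It came to 0.39 without micronucleated cell 21, which held 27.4% of its group's Igfbp6 reads, and to 1.10 without cell 10 of the other group. In equal weights for every cell the ratio was 0.55, and without the 6 cells of few genes or high mitochondrial share it was 0.27.

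Igfbp4, the IGF-inhibiting member that the protease pappalysin cuts, was present in fewer cells and at very uneven levels. It spans chr11:99041244-99054392 on the plus strand. It had 0 to 260.4 CPM in micronucleated cells (median 14.97) and 0 to 1520 CPM in cells without micronuclei (median 27.9). The groups overlapped, but cells 1, 2 and 5 without micronuclei lay above every micronucleated cell, cell 1 by far the highest. At least 5 reads were present in 9 of 21 micronucleated cells (42.9%, 21.8 to 66.0%) and in 7 of 14 cells without micronuclei (50.0%, 23.04 to 76.96%). Summed levels were 52.5 CPM with micronuclei (48.3 to 57.0) and 131.9 CPM without (125.4 to 138.7), a log2 ratio of −1.31. Cell 1 without micronuclei gave 820 of its group's 1532 reads, and without it the ratio was −0.29. Without the 6 cells of few genes or high mitochondrial share, among which cell 1 is counted, the sign turned (0.53).

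Igfbp2, the member with the integrin-binding triplet, was found only in cells without micronuclei at 5 or more reads. It spans chr1:72824503-72852474 on the plus strand. A single read was counted in the 21 micronucleated cells together, in cell 4 (10.8 CPM in that cell), and the other 20 had 0. Cells without micronuclei had 0 to 334.7 CPM with a median of 0, and the 4 with reads were cell 1 (49 reads, 90.8 CPM), cell 2 (19 reads, 334.7 CPM), cell 4 (350 reads, 230.7 CPM) and cell 14 (40 reads, 273.6 CPM). The groups overlapped at 0, where 10 of 14 cells without micronuclei stood. In the 20 micronucleated cells without a read, a count of 0 allows at most 52.2 CPM by counting error alone. The levels of the 4 cells with reads in the other group lay above that bound. The bound can be too low, because untagged reads are not independent molecules. It does not cover transcripts lost at capture, and their part in the zeros was not tested.

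As a share of cells, 0 of 21 micronucleated cells had at least 5 Igfbp2 reads, with an exact upper bound of 16.1%, against 4 of 14 cells without micronuclei (28.6%, 8.39 to 58.1%). The 2 intervals overlap. Summed levels were 0.0902 CPM with micronuclei (0.00228 to 0.503) and 39.4 CPM without (35.9 to 43.2), a ratio of 0.00229 with a counting interval of 5.8e-05 to 0.0128. The log2 ratio was −5.21, and −3.42 without cell 4, which gave 76.4% of its group's reads. Chondrocyte markers (Acan, Col2a1, Sox9 and Comp), among several marker sets summed, came to 183.5, 916.0, 7.25 and 335.2 CPM in cells 1, 2, 4 and 14. In each of these cells only 1 of the 4 markers had at least 5 reads. Over the groups the sum of the markers ranged from 0 to 479.3 CPM with micronuclei (median 33.5) and from 0 to 916.0 CPM without (median 62.1). Micronucleated cell 13, with 479.3 CPM and 2 markers at 5 reads, had 0 reads of Igfbp2. The part of these markers in the Igfbp2 values was not tested.

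Igfbp5, a matrix-bound IGF carrier, lies 5457 bases from Igfbp2 on the opposite strand, at chr1:72857932-72874884. It had 0 to 66.4 CPM in micronucleated cells and 0 to 75.3 CPM in cells without micronuclei, with a median of 0 in both, and the groups overlapped. At least 5 reads were found in 3 of 21 micronucleated cells and in 1 of 14 cells without micronuclei. The summed log2 ratio of 2.50 rested on micronucleated cell 7, with 96 of 111 reads, and was 0.39 without it. Without cell 14 of the other group, which held all 11 of that group's reads, it was 3.46. Each of these 2 neighbouring genes had at least 5 reads in 4 of the 35 cells, and 1 cell, cell 14 without micronuclei, had both. With so few cells this overlap is no finding.

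Igfbp3, the main IGF carrier of blood, was close to the limit of detection. It spans chr11:7206086-7213923 on the minus strand. There were 16 reads in micronucleated cells and 6 in cells without micronuclei, with 0 to 22.1 CPM and 0 to 6.72 CPM per cell and a median of 0 in both. Only micronucleated cell 2 had 5 reads or more, and the log2 ratio of 0.69 was −0.04 without it.

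Against all genes, differences of this size were common. Among the 8390 genes measured (at least 5 CPM over all cells and 5 reads in 5 cells), 22.9% were at least 2-fold higher and 14.7% at least 2-fold lower with micronuclei. Of the 3 members measured, Igfbp4, Igfbp6 and Igfbp7, 0 were 2-fold higher and 1, Igfbp4, was 2-fold lower. Over all 18258 genes with a read the shares were 21.6% higher and 13.1% lower, and of the 6 members 1 was 2-fold higher (Igfbp5) and 2 were 2-fold lower (Igfbp2 and Igfbp4). With so few members, these counts do not set the family apart from other genes.

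**Figure D3:**
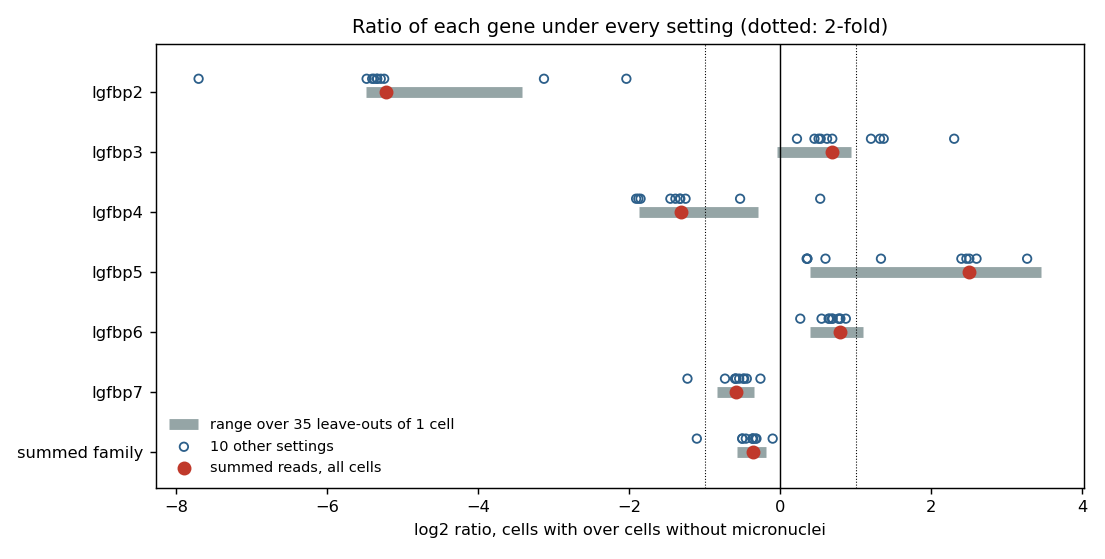
Log2 ratio of micronucleated cells over cells without micronuclei for each gene and the summed family. Red points are summed reads of all 35 cells, grey bars the range when each cell is left out in turn and open circles the 10 other settings; Igfbp6 stays above 0 and Igfbp7 and the summed family below 0 throughout, while an open circle of Igfbp4 and the bar of Igfbp3 cross 0.

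Cell-to-cell spread placed the 3 measured members differently among genes of like level. Igfbp4 had a coefficient of variation of 2.55 over the 35 cells, against a median of 1.18 for the 839 genes of its class (measured genes ranked by mean level and divided into 10 classes), and exceeded 96.5% of them. It was found in 16 cells, where the median gene of that class was found in 24. Igfbp6 had a coefficient of 1.27 (median of its class 0.94) and exceeded 81.4% of like genes. Igfbp7 had 0.79 (median 0.65) and exceeded 70.4%. By this description all 3 were more uneven than the typical gene of their level, Igfbp4 the most. Cell 1 without micronuclei held 38.8% of all Igfbp4 reads, against a median top-cell share of 22.8% in its class. The coefficient of Igfbp4 without that cell was not computed.

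Over the 35 cells the members showed little relation to one another. Spearman's rho of log2(CPM + 1) was −0.12 between Igfbp4 and Igfbp6, 0.14 between Igfbp4 and Igfbp7 and 0.25 between Igfbp6 and Igfbp7. Such weak values in sparse counts are no finding. Larger values were found with other genes, given as a description over cells that share group, depth and capture. Igfbp7 was most like Crim1, which encodes a membrane protein that itself carries an IGFBP-type domain, with a rho of 0.75 (Pearson's r 0.65). The rho was 0.75 within micronucleated cells, 0.78 within cells without micronuclei and 0.71 without the 2 farthest cells, where the 99th percentile of 3263 genes compared was 0.46. Ckap4 (0.64) and Zfand3 (0.63) followed.

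Igfbp6 was most like Coq10b (0.66), Itga5 (0.65) and Sh3gl1 (0.64), against a 99th percentile of 0.50. Itga5 encodes the integrin subunit that receives fibronectin, and its rho with Igfbp6 was 0.67 within micronucleated cells and 0.62 within the other group. Igfbp6 also had a rho of 0.52 with Acta2, the smooth muscle actin of contractile fibroblasts, at 0.42 within micronucleated cells and 0.58 within cells without micronuclei. Among the genes most like Igfbp4 were Psme3 (0.59) and Pdcd6ip (0.55), against a 99th percentile of 0.42. Its rho with Igf2, the ligand it can bind, was 0.48, at 0.38 within micronucleated cells and 0.62 within the other group. At least 5 Igf2 reads were found in 14 of the 16 cells with Igfbp4, against 26 of all 35 cells. For the other measured members the rho with Igf2 over all cells was near 0, at −0.00085 for Igfbp6 and 0.08 for Igfbp7. Within micronucleated cells and within the other group it was 0.19 and −0.36 for Igfbp6, and 0.07 and 0.18 for Igfbp7.

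**Figure D4:**
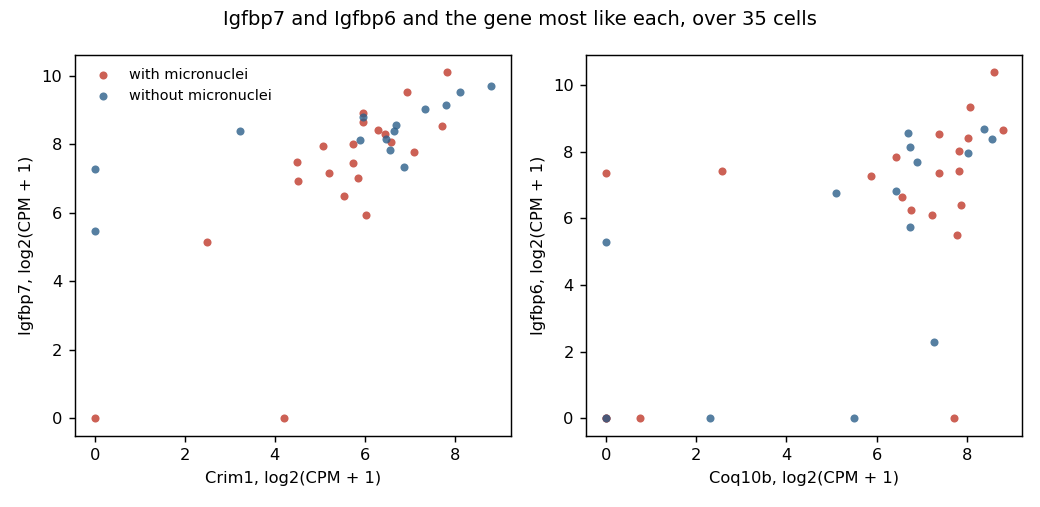
Level of Igfbp7 and Igfbp6 against the gene most like each (Crim1 and Coq10b), as log2(CPM + 1), with 1 point per cell, micronucleated cells in red and cells without micronuclei in blue. The points of both groups overlap in the Crim1 panel, where rho was 0.75 with and 0.78 without micronuclei.

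The ligands and receptors of the pathway were measured for 6 of 7 genes in the table. With micronuclei 4 were higher and 2 lower, 1 and 0 past 2-fold, with a median log2 ratio of 0.20. Over all measured genes 56.0% were higher, 22.9% at least 2-fold higher and 14.7% at least 2-fold lower. The median over all of them was 0.15 on summed reads and 0.05 in equal weights. The same shares apply to the lists below, and with so few genes the counts do not set a list apart. Igf1 had 49.3 CPM with micronuclei and 15.2 CPM without (log2 ratio 1.64). It was found in 8 of 21 micronucleated cells and in 1 of 14 cells without micronuclei, cell 1. Without that cell the ratio was 5.65, a value that the added 1 CPM largely sets. The Igf1 ratio was 1.17 without micronucleated cell 11 and 0.64 in equal weights. Igf2 differed little, at 300.3 CPM with micronuclei and 254.6 CPM without (0.24), and leaving out cell 7 without micronuclei turned its ratio to −0.04. Igf1r stood at 75.9 CPM with micronuclei and 109.5 CPM without (−0.52). In equal weights the Igf1r ratio was −0.03, and the mean of log2 levels per cell gave a difference of 0.10. Igf2r stood at 98.9 CPM with micronuclei and 197.4 CPM without (−0.99, or −0.13 without cell 8 of the other group). Insr had 14.5 CPM with micronuclei and 12.8 CPM without (0.17; 3.16 without cell 6 of the other group). Lrp1, an endocytic receptor to which some binding proteins attach, had 206.0 CPM with micronuclei and 129.7 CPM without (0.66). Where exons are shared, reads of Igf1, Igf2, Igf2r, Insr and Lrp1 can include those of overlapping genes on the other strand (Igf1os, Igf2os, Airn, Gm16180 and Gm16217).

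Of 11 receptor adaptors measured, 6 were higher and 5 lower, 4 and 1 past 2-fold, with a median of 0.86 on summed reads and 0.07 in equal weights. Akt2, a kinase downstream of the receptor, had 23.7 CPM with micronuclei and 6.63 CPM without (1.70; 2.30 without cell 13 of the other group). Shc1, which couples the receptor to Ras, had 91.8 and 28.9 CPM (1.63), and Akt1 124.2 and 64.0 CPM (0.95). Grb10, an adaptor that restrains the receptor, was lower, at 153.7 CPM with micronuclei and 281.0 CPM without (−0.87). These 4 were named because they kept their sign in every leave-out of 1 cell, so that stability is part of the choice and not a result.

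Proteases that cut binding proteins, with their inhibitors, divided evenly: 6 of 12 measured were higher and 6 lower, 1 and 2 past 2-fold, with a median of −0.07. Plau, the urokinase that activates plasmin, had 78.0 CPM with micronuclei and 17.1 CPM without (2.12), although the mean of log2 levels per cell gave a difference of −0.06. Its ratio came to 1.49 without micronucleated cell 9 and to 2.81 once cell 5 without micronuclei was left out. The metalloproteinases Mmp2 (62.6 CPM with and 149.3 CPM without micronuclei, −1.24) and Adam9 (166.1 and 381.1 CPM, −1.19) were lower. Leaving out cell 5 without micronuclei brought Mmp2 to −0.44, and leaving out micronucleated cell 13 brought it to −2.91. Adam9 came to −0.44 once cell 7 without micronuclei was left out.

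Other genes whose products carry an IGFBP-type domain were measured for 6 of 8 in the table, 5 higher and 1 lower, 3 and 0 past 2-fold, with a median of 1.07 on summed reads and 0.41 in equal weights. The matricellular gene Cyr61 had 2523 CPM with micronuclei and 1010 CPM without (1.32), Ctgf 1356 and 714.9 CPM (0.92) and Wisp1 397.0 and 224.0 CPM (0.82). Crim1 was the lower one, at 58.0 CPM with micronuclei and 113.0 CPM without (−0.95). Fez2 overlaps Crim1 on the opposite strand.

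The IGF2 mRNA binding proteins, which bind the transcript and not the peptide, were measured for 3 of 3, 2 higher and 1 lower, 0 and 1 past 2-fold. Their median was 0.21 on summed reads and −0.18 in equal weights. Igf2bp2 had 15.1 CPM with micronuclei and 96.2 CPM without (−2.60; −0.75 without cell 7 of the other group), and Igf2bp3 34.5 and 16.9 CPM (0.99). Of the matrix and surface partners, 11 of 13 in the table were measured, 5 higher and 6 lower, 1 and 1 past 2-fold, with a median of −0.08. Among them the TGF-β receptor gene Tgfbr2 had 52.8 CPM with micronuclei and 149.2 CPM without (−1.48; −0.60 without cell 8 of the other group), and Itgb1, the common integrin β subunit, 930.1 and 1804 CPM (−0.96). Sdc2 was higher on summed reads, at 162.0 CPM with micronuclei and 75.2 CPM without (1.10; 0.31 without micronucleated cell 13). So was Itgb3, at 28.6 and 16.3 CPM (0.78; 2.44 without cell 6 of the other group). The mean of log2 levels per cell gave a difference of −0.06 for Sdc2 and 1.22 for Itgb3. Imprinted neighbours and regulators of Igf2 were measured for 5 of 5, 3 higher and 2 lower, 1 and 0 past 2-fold, with a median of 0.00 on summed reads and 0.28 in equal weights.

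Detection of the members was compared without the cells that stood apart. Without the 6 cells of few genes or high mitochondrial share, Igfbp2 was found in 0 of 17 micronucleated cells and 3 of 12 cells without micronuclei, Igfbp4 in 7 and 5, Igfbp6 in 14 and 9, and Igfbp7 in 16 and 12. Without the 4 cells with macrophage markers, Igfbp2 was found in 0 of 17 micronucleated cells and 4 of 14 others, Igfbp4 in 6 and 7, Igfbp6 in 13 and 10, and Igfbp7 in 15 and 14. Micronucleated cell 10, which had all 10 macrophage markers, still had 68 reads of Igfbp4, 61 of Igfbp6 and 54 of Igfbp7. After thinning 30 cells to 119337 reads each, Igfbp2 was found in 0 of 17 micronucleated cells and 3 of 13 others, Igfbp4 in 6 and 4, Igfbp6 in 13 and 9, and Igfbp7 in 14 and 12.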

How the data were processed

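The authors deposited 1 table of whole-number read counts per gene, not normalized, for 35 cells, with 19085 genes and 62 spike-ins. Per the submitters' processing notes and the deposited phenotype table, STAR aligned the reads to GRCm38.p5, Rsubread counted them per gene, and scater kept cells with at most 10% spike-in reads, at least 2000 genes and at least 40000 counts. For tool versions and the strand setting, the sources used here give nothing. No further cell was removed from the main values, no doublet caller was run on hand-picked cells, and 0 of 595 pairs of cells were identical.

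Reads were summed per group and expressed as CPM without spike-ins, with 1 CPM added before log2. No test was run, since each group is 1 sample. The calculation of the sums was checked on simulated data with folds set in advance. That check covered medians over sets of genes, with a spread between cells that was not fitted to these data. It says nothing on how stable the ratio of a single gene is here. Cells were numbered within a group in accession order. Lengths, overlaps and coding bases came from GENCODE M21. The members and lists were chosen with earlier results of these data known. Named are the members, Igf1, Igf2, Igf1r, Igf2r and Insr, up to 4 measured genes per list with the most stable sign and size over summed reads, equal weights and leave-outs, and the 3 genes most like each measured member among genes with 5 reads in at least 20 cells; some genes this rule names are not reported here. Alternatives were equal weights, mean log2 level, TMM factors (edgeR 4.0.16), scran 1.30.0 size factors, nuclear genes only, 0.1 or 5 CPM added, thinning, other filters and leaving out cells. Python 3.11.15, pandas 2.3.3, scipy 1.17.1 and R 4.3.3 were used.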

Additional observations from a re-analysis of the deposited data

How the results depend on the processing

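Igfbp2, Igfbp5, Igfbp6, Igfbp7 and the summed family kept their sign in 45 of 45 alternatives, and Igfbp3 and Igfbp4 in 44 of 45 each. The log2 ratio of Igfbp2 was −2.04 as a difference of mean log2 levels and −7.70 with 0.1 CPM added, and Igfbp3 came to 2.31 after thinning. Igfbp4 turned to 0.53 without the 6 cells of few genes or high mitochondrial share, a choice made after seeing the data, as were leaving out the 4 cells with macrophage markers and the leave-outs behind the shares of the family. Igfbp5 was 0.35 in equal weights, 0.60 as mean log2 levels, 0.36 with scran factors, 0.36 after thinning and 0.39 to 3.46 over leave-outs of 1 cell. As mean log2 levels, Igfbp7 was −1.23 and the summed family −1.10. Genes at least 2-fold higher with micronuclei numbered 1925, 3947 without the filter and 984 with a stricter one (20 CPM, 10 cells), and those 2-fold lower 1236, 2399 and 729. The causes of these shifts were not tested. Depth limits Igfbp3, with 22 reads in all. No paired analysis was possible because cell numbers only name cells and each group is 1 sample.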

Other observations

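Genes of growth arrest and of division, which IGF signalling is known to influence, showed no common direction. Of 6 genes of p53 and growth arrest measured, 3 were higher and 3 lower with micronuclei, 1 and 1 past 2-fold, with a median log2 ratio of −0.17. Trp53 itself had 194.8 CPM with micronuclei and 89.7 CPM without (1.11; 0.84 without cell 7 of the other group), while Mdm2, its negative regulator, had 129.0 and 226.0 CPM (−0.80). Ccng1, a p53 target, differed little, at 315.8 CPM with micronuclei and 255.5 CPM without (0.30).

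Of 12 proliferation genes measured, 6 were higher and 6 lower, 1 and 2 past 2-fold, with a median of −0.09. The mitotic cyclin gene Ccnb2 had 34.1 CPM with micronuclei and 1.64 CPM without (3.74), was found in 6 of 21 micronucleated cells and 1 of 14 others, and had 65.5% of its reads in micronucleated cell 13 (2.38 without that cell, 5.13 without cell 3 of the other group). Mcm2, a subunit of the replicative helicase, had 10.8 CPM with micronuclei and 59.0 CPM without (−2.34), and Pcna, the sliding clamp of DNA polymerase, had 134.7 and 252.7 CPM (−0.90).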
